A study of Mus musculus with 6 samples.

Results

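The 48 genes described here copy the genome and divide the cell. They were taken by symbol from a named list, 48 of the 41253 gene symbols with counts, and fall into 27 genes of mitosis, 16 of S phase and 5 transcription factors that regulate both. They were measured by RNA sequencing of 6 oesophageal squamous cell carcinomas of C57BL/6 mice. 3 libraries were labelled Ptpro-KO (genotype Ptpro-/-) and 3 WT (wild type). Every mouse in both groups had been given the carcinogen 4NQO, labelled as 100 mg/mL, in drinking water for 16 weeks, starting at an age of 6 weeks. Mice were killed 12 weeks after the end of treatment, or earlier if they had lost much weight. The design text gives an age of 34 weeks, whereas an age tag gives week 6. The labels do not say which cells lack Ptpro or how the allele was made, and untreated oesophagus was not analysed here.

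Entry into S phase depends on E2F transcription factors, which pocket proteins of the retinoblastoma family hold back until cyclin-dependent kinases release them. Later in the cycle the MuvB complex works with Mybl2 and Foxm1 to turn on the genes of mitosis, many of which carry a cell cycle homology region (CHR) near their start. In normal squamous oesophagus, division takes place mainly in the basal layer, and cells stop dividing as they move up and differentiate.

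The labels and the expression of the targeted gene did not match. Ptpro, a receptor-type tyrosine phosphatase, had 1094, 1824 and 1921 reads in Ptpro-KO-labelled libraries, against 174, 9 and 67 reads in WT-labelled ones, a log2 difference of 3.97 ± 0.85 (SE, n = 3 each; edgeR adjusted p = 0.0617). The groups are therefore named by label throughout, and each direction below is a direction between labels. Libraries held 25745240 to 39827467 reads. Ptpro-KO replicate 3 stood apart by 12350 CPM (reads relative to library size) summed over 4 stomach epithelium markers, against 3.26 and 21.9 CPM in the other Ptpro-KO libraries and at most 0.80 CPM in the WT libraries, where Pgc was at 0. Ptpro-KO replicate 2 stood apart by Tg, the thyroglobulin gene, singled out after its values were seen, with 774 CPM, against 2.60 and 1.63 CPM in the other Ptpro-KO libraries and at most 1.12 CPM in the WT libraries. Counts and medians are also given without these libraries.

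The promoters of the members were searched for the letters of 3 elements of cell cycle genes. Of the 48 members, 41 matched a RefSeq promoter window (GRCm38.p6), in which the 250 bases before the RefSeq gene start were searched on both strands. The CHR was searched as TTTGAA, the E2F site as TTTCCCGC, TTTGGCGC or TTTCGCGC, and the CCAAT box, bound by the factor NF-Y, as CCAAT. These words can overlap one another. The CHR letters stood in 8 of 23 mitosis windows (34.8%), 2 of 14 S phase windows (14.3%) and 1 of 4 regulator windows, against 16.0% of all 32851 windows. The E2F letters stood in 1 of 23 mitosis windows (4.35%), 5 of 14 S phase windows (35.7%) and 0 of 4 regulator windows, against 1.53% of all windows. CCAAT was frequent in both sets, in 18 of 23 mitosis windows (78.3%) and 10 of 14 S phase windows (71.4%), against 33.8% of all windows. The 4 stretches below are the 120 bases before the start of the described members whose motif lay nearest to it, 2 from each set. Capitals mark the CHR in Cdc20 and Kif11, read on the opposite strand in Kif11, and the E2F letters in Mcm6 and Hells.
Cdc20: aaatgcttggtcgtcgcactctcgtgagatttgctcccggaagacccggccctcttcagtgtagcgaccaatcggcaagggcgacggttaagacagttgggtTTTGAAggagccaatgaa
Kif11: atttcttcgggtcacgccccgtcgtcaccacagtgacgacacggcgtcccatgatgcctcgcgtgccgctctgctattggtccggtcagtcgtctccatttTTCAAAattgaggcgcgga
Mcm6: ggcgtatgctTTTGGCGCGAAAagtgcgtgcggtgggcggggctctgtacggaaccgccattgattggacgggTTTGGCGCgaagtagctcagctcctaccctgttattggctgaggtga
Hells: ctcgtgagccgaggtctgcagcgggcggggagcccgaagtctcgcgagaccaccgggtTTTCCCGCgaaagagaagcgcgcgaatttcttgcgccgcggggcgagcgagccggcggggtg
They lie at chr4:118437344-118437463 (Cdc20, minus strand), chr19:37376262-37376381 (Kif11, plus strand), chr1:128359706-128359825 (Mcm6, minus strand) and chr19:38930870-38930989 (Hells, plus strand). The motif begins 18 bases before the start in Cdc20, 19 bases before it in Kif11 and 62 bases before it in Hells. Mcm6 holds 3 E2F matches, 2 of which overlap on opposite strands, and the nearest begins 47 bases before its start. A match in letters is a description, and no binding was measured.

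The first question was whether the division genes differed between tumours of the 2 labels. None of the 48 members passed the test. At an edgeR adjusted p under 0.05, 0 of 48 were called, beside 4.10% of the 17663 genes tested (1.81% higher and 2.29% lower), and DESeq2 also called 0, beside 17.9% of all genes. At an unadjusted p under 0.05 edgeR gave 4 members, beside 25.0% of all genes. Top2a, Nusap1 and Kif11 were the 3 on the lower side in Ptpro-KO-labelled libraries, beside 11.3% of all genes, and E2f2 was the 1 on the higher side, beside 13.7%. All 48 members passed the filter on low counts, with 41 to 16670 reads per library, and adjusted p ranged from 0.152 to 0.987. Together they took 0.193%, 0.221% and 0.316% of the reads in Ptpro-KO-labelled libraries, against 0.236%, 0.324% and 0.252% in WT-labelled ones. In bulk tumour RNA, the share of dividing cells, the RNA per dividing cell and the share of other tissue cannot be told apart.

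**Figure D1:**
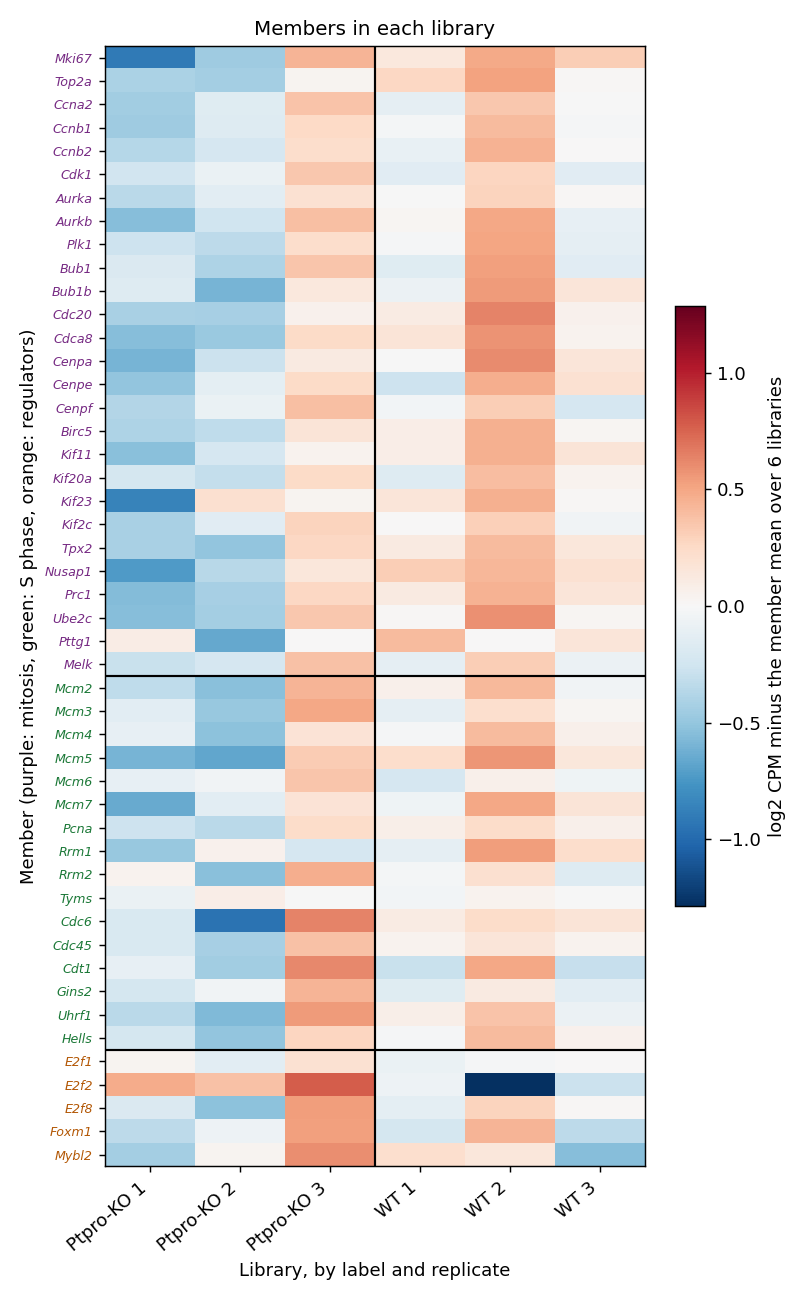
Log2 CPM of each of the 48 members (rows, by set) in the 3 libraries labelled Ptpro-KO and the 3 labelled WT (columns), as the distance from that gene's mean over the 6 libraries. Ptpro-KO replicate 3 and WT replicate 2 stand out in most rows, each the highest library of its label for 44 of the 48 members.

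The intervals say how large a difference these 6 tumours allow. For 35 of 48 members the 95% interval of the difference lay within 2-fold in both directions, as it did for 52.7% of all genes tested. For 12 members it reached a 2-fold lower level in Ptpro-KO-labelled libraries, beside 3886 of the 17663 genes tested. For 1, E2f2, it reached a 2-fold higher one, beside 5836 of all genes tested. Below that size the fitted differences were mostly negative: 39 of 48 members had a log2 difference under 0, against 46.7% of all genes tested, and their median was -0.24, against 0.03 for all genes. The common biological coefficient of variation between libraries, estimated over all genes tested rather than over the members, was 0.398. Since members of 1 tumour rise and fall together, their number adds no replicates, and the medians carry no test.

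**Figure D2:**
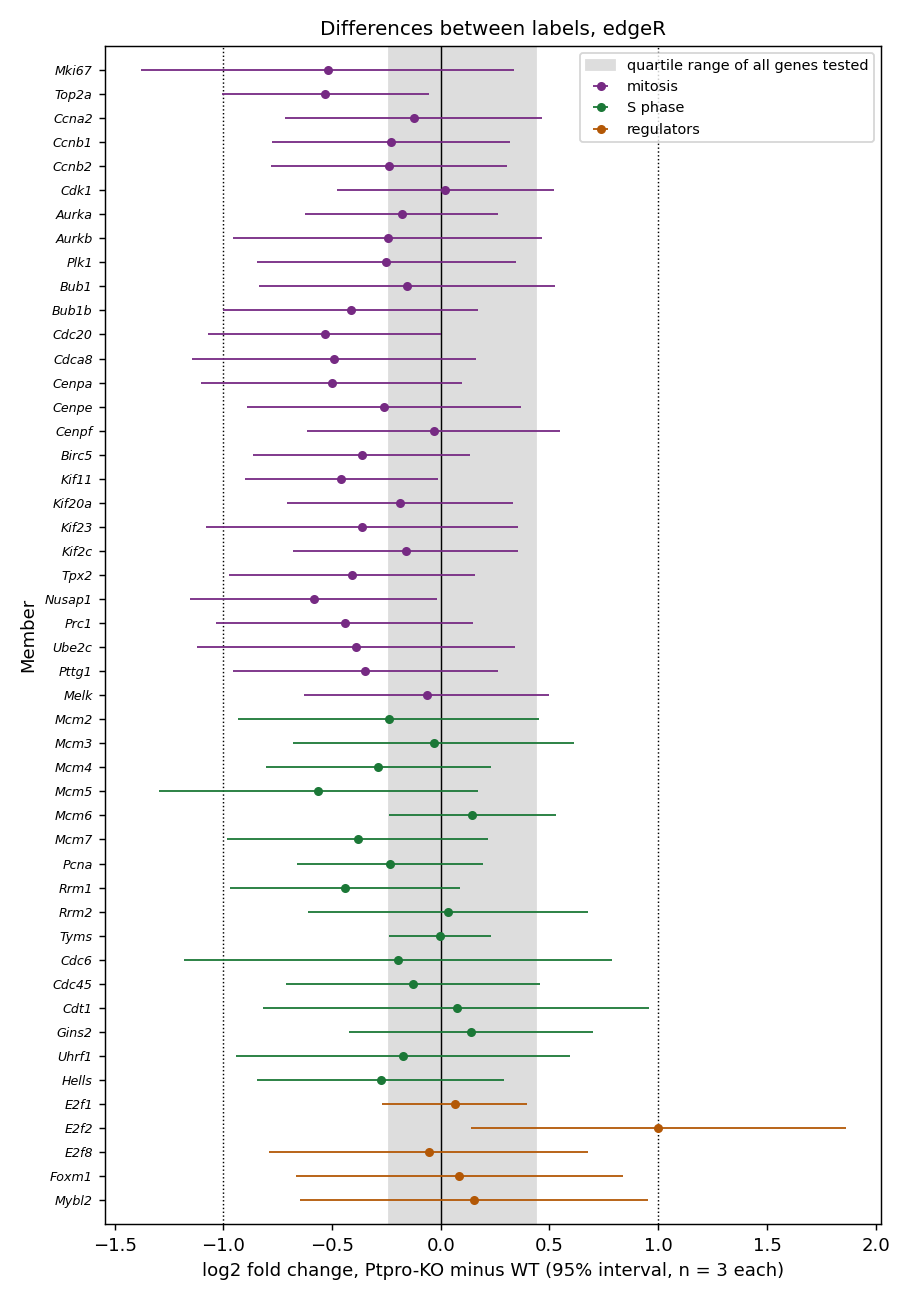
Log2 difference of each member, Ptpro-KO minus WT label, with its 95% interval from edgeR (n = 3 each); the grey band runs from the lower to the upper quartile of all genes tested and thin lines mark a 2-fold difference. Of the 27 mitosis members 26 lie below 0, and E2f2 lies farthest to the right at 1.00.

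The fitted differences of the mitosis members had a lower median than those of the S phase members, and the sets were not tested against each other. Of the 27 mitosis genes 26 had a negative log2 difference, with a median of -0.35 and a range of -0.58 to 0.02. Of the 16 S phase genes 12 were negative, with a median of -0.19 and a range of -0.56 to 0.15. The 5 regulators had a median of 0.09, with 1 of 5 negative. Against the median of all genes, these were differences of -0.38 for mitosis, -0.22 for S phase and 0.05 for the regulators. With library totals in place of TMM scaling all genes shifted to a median of 0.19, 23 mitosis and 9 S phase members were below 0, and the medians were -0.20 for mitosis, -0.03 for S phase and 0.24 for the regulators. A change of scaling moves all genes by nearly the same amount. Relative to all genes the medians therefore stayed at -0.38, -0.22 and 0.05 by construction. The S phase median was -0.02 without Ptpro-KO replicate 2, -0.10 without WT replicate 2, -0.12 without Ptpro-KO replicate 1 and -0.44 without Ptpro-KO replicate 3. The mitosis median was -0.18 without WT replicate 2, -0.21 without Ptpro-KO replicate 1, -0.26 without Ptpro-KO replicate 2 and -0.47 without Ptpro-KO replicate 3.

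Averaged over each set, the libraries of the 2 labels overlapped. The mean log2 CPM of the mitosis members was 4.87, 5.0 and 5.52 in Ptpro-KO-labelled libraries, against 5.32, 5.73 and 5.33 in WT-labelled ones. Ptpro-KO replicate 3 stood above 2 of the 3 WT libraries. The S phase members averaged 5.09, 4.96 and 5.67 in Ptpro-KO-labelled libraries, against 5.31, 5.65 and 5.35 in WT-labelled ones. Here Ptpro-KO replicate 3 stood above all 3 WT libraries, and the other 2 Ptpro-KO libraries stood below all of them. The group means of the mitosis members were 5.13 ± 0.35 for Ptpro-KO and 5.46 ± 0.23 for WT (SD, n = 3 each), a gap of -0.33 beside a pooled SD of 0.30. Those of the S phase members were 5.24 ± 0.38 for Ptpro-KO and 5.44 ± 0.19 for WT (SD, n = 3 each), a gap of -0.20 beside a pooled SD of 0.30. The balance between the sets, mitosis minus S phase, was -0.22, 0.04 and -0.15 in Ptpro-KO-labelled libraries, against 0.01, 0.08 and -0.02 in WT-labelled ones. Its groups overlapped through Ptpro-KO replicate 2, with a gap of -0.14 beside a pooled SD of 0.10.

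**Figure D3:**
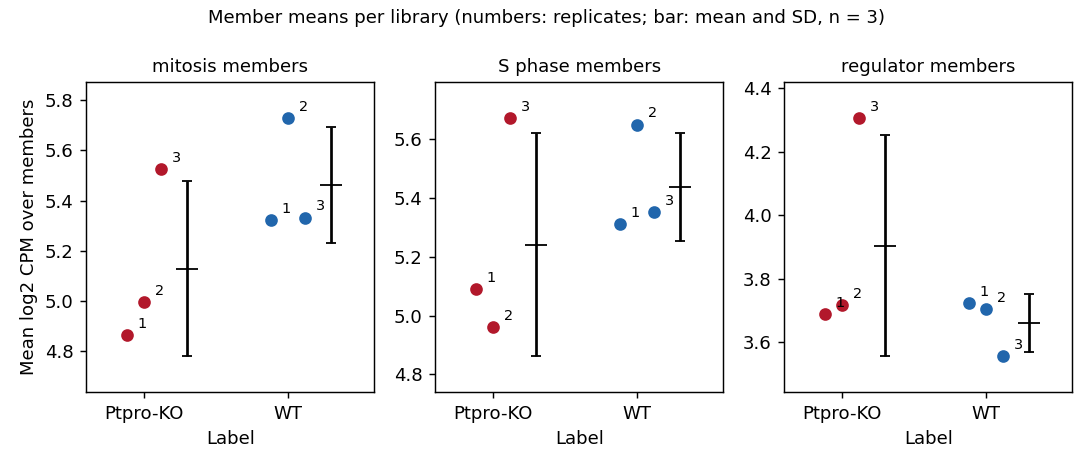
Mean log2 CPM over the mitosis, S phase and regulator members (panels) in each library, by label; points are libraries with their replicate number, and bars give the mean and SD (n = 3). In the mitosis and S phase panels Ptpro-KO replicate 3 lies inside or above the WT range, at 5.52 and 5.67, while the other 2 Ptpro-KO libraries lie below it.

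Within a label the members moved together from tumour to tumour. Ptpro-KO replicate 3 was the highest of its label for 44 of 48 members (91.7%), against 34.4% of all genes tested, and the exceptions were Kif23, Pttg1, Rrm1 and Tyms. WT replicate 2 was the highest of its label for 44 of 48 as well, against 34.5% of all genes, the exceptions being Pttg1, E2f1, E2f2 and Mybl2. Over all 6 libraries, WT replicate 2 was the highest for 28 members and Ptpro-KO replicate 3 for 18. Ptpro-KO replicates 1 and 2 were the lowest for 24 and 21 members. The median SD of a member's log2 CPM was 0.39 in Ptpro-KO-labelled libraries and 0.24 in WT-labelled ones, beside 0.28 and 0.22 over all genes tested. Without Ptpro-KO replicate 3, all 27 mitosis and all 16 S phase members had a negative difference, against 47.5% of all genes. The S phase count includes Tyms at -0.001 and Mcm6 at -0.015. Leaving out the highest library of a label lowers that label's mean, so this shift follows from the choice for those 44 members. In that fit 16 members reached an unadjusted edgeR p under 0.05, beside 24.5% of all genes tested. The log2 difference went from -0.52 to -0.99 in Mki67 (edgeR adjusted p = 0.075) and from -0.56 to -0.96 in Mcm5. Here too 0 members were called, the lowest adjusted p being 0.0542, for Mcm5. Without Ptpro-KO replicate 2, 0 members were called and 2 reached an unadjusted p under 0.05.

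Genes that shape the mitotic chromosome were the most highly expressed of the mitosis set. Top2a encodes topoisomerase II alpha, which untangles sister DNA before segregation, and averaged 51.4 RPKM (reads relative to transcript length and library size) over the 6 libraries (chr11:98992943-99024189, minus strand, GRCm38). It had 177, 173 and 240 CPM in Ptpro-KO-labelled libraries, against 282, 334 and 236 CPM in WT-labelled ones. The groups overlapped by 1 library each, Ptpro-KO replicate 3 standing just above WT replicate 3. The log2 difference was -0.53 ± 0.19 (SE; 95% interval -1.01 to -0.05; adjusted p = 0.164). Mki67 encodes the Ki-67 protein, a coat of the mitotic chromosome surface widely stained to count dividing cells. It had 173, 237 and 439 CPM in Ptpro-KO-labelled libraries, against 357, 457 and 404 CPM in WT-labelled ones. Its lowest and highest Ptpro-KO libraries lay on either side of the lowest WT library, and the interval ran from -1.38 to 0.34 around a log2 difference of -0.52 (adjusted p = 0.412).

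Of the 7 cell cycle kinases and cyclins in the mitosis set, 6 had a negative log2 difference, beside 46.7% of all genes tested. Ccna2, cyclin A2, had the highest RPKM of these 7 genes (22.8), with 48, 58.8 and 84.4 CPM in Ptpro-KO-labelled libraries, against 60.2, 83.3 and 65.1 CPM in WT-labelled ones. Ptpro-KO replicates 1 and 2 lay below all WT libraries and replicate 3 just above them, with a log2 difference of -0.13 ± 0.24 (SE; adjusted p = 0.791). Ccnb2, cyclin B2, had the smallest p of the group, with 19.0, 21.1 and 28.8 CPM in Ptpro-KO-labelled libraries, against 23.0, 33.5 and 24.7 CPM in WT-labelled ones. Here Ptpro-KO replicate 3 lay within the WT range, and the log2 difference was -0.24 ± 0.22 (SE; adjusted p = 0.556). The others were Ccnb1, the main partner of Cdk1, Cdk1 itself, the kinases Aurka and Plk1, which build the spindle, and the kinase Melk. Their log2 differences ran from -0.25 in Plk1 to 0.02 in Cdk1, and the intervals of all 7 genes lay within 2-fold in both directions.

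Chromosomal passenger and spindle checkpoint genes correct and monitor the attachment of chromosomes to the spindle. Birc5, or survivin, a passenger subunit, had 20.8, 21.8 and 30.7 CPM in Ptpro-KO-labelled libraries, against 29.0, 37.5 and 27.8 CPM in WT-labelled ones, with a log2 difference of -0.36 ± 0.21 (SE; adjusted p = 0.332). Cdca8, or borealin, another passenger subunit, had 16.0, 16.8 and 27.8 CPM in Ptpro-KO-labelled libraries, against 26.2, 34.8 and 24.1 CPM in WT-labelled ones, with a log2 difference of -0.49 ± 0.27 (SE; adjusted p = 0.318). In both genes 2 Ptpro-KO libraries lay below all WT libraries and replicate 3 lay within them. Bub1b, which encodes the checkpoint protein BubR1, had 38.8, 28.8 and 47.7 CPM in Ptpro-KO-labelled libraries, against 41.4, 63.4 and 48.6 CPM in WT-labelled ones. Only Ptpro-KO replicate 3 reached the WT range, and the log2 difference was -0.41 ± 0.24 (SE; adjusted p = 0.344). The passenger kinase Aurkb and the checkpoint kinase Bub1 had log2 differences of -0.24 and -0.15.

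Of the 6 centromere and anaphase genes, 5 were highest within their labels in Ptpro-KO replicate 3 and WT replicate 2. Cenpa, the histone H3 variant that marks centromeres, had 16.3, 20.3 and 26.7 CPM in Ptpro-KO-labelled libraries, against 24.6, 37.6 and 27.4 CPM in WT-labelled ones. Ptpro-KO replicate 3 lay between the 2 lowest WT libraries, and the log2 difference was -0.50 ± 0.25 (SE; adjusted p = 0.271). Of the kinetochore proteins Cenpe, a kinesin, had a log2 difference of -0.26 and Cenpf one of -0.03. Cdc20, the activator of the anaphase-promoting complex whose CHR is printed above, had 37.8, 37.6 and 52.5 CPM in Ptpro-KO-labelled libraries, against 54.2, 78.6 and 52.5 CPM in WT-labelled ones. Ptpro-KO replicate 3 and WT replicate 3 had equal values to 3 digits and the others were apart, with a log2 difference of -0.53 ± 0.22 (SE; 95% interval -1.07 to 0.00; adjusted p = 0.202). Ube2c, the ubiquitin-conjugating enzyme of that complex, had a log2 difference of -0.39, and Pttg1, or securin, one of its substrates, -0.35. Pttg1 was one of few members that did not follow the order of the others, being highest in Ptpro-KO replicate 1 and WT replicate 1 within their labels.

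The 7 motor and spindle genes included both lower members whose groups did not overlap. Across all genes tested, 32.5% had no overlap, 15.7% with all libraries labelled Ptpro-KO below all labelled WT, against 2 of 48 members below and 1 above. Nusap1, a microtubule-binding protein of the spindle (chr2:119618298-119651244, plus strand, GRCm38), had 16.8, 21.7 and 30.7 CPM in Ptpro-KO-labelled libraries, against 34.7, 37.3 and 31.8 CPM in WT-labelled ones. The gap between the groups was narrow, and the log2 difference was -0.58 ± 0.23 (SE; 95% interval -1.15 to -0.02; adjusted p = 0.189). Kif11, the kinesin that pushes spindle poles apart and whose CHR is printed above, had 52.0, 64.6 and 77.8 CPM in Ptpro-KO-labelled libraries, against 79.7, 103 and 84.3 CPM in WT-labelled ones. Its groups were also separated by little, with a log2 difference of -0.46 ± 0.18 (SE; 95% interval -0.90 to -0.01; adjusted p = 0.190). Prc1, which bundles the microtubules of the central spindle and had the highest RPKM of the group (26.8), had 50.7, 55.4 and 89.5 CPM in Ptpro-KO-labelled libraries, against 81.0, 102 and 83 CPM in WT-labelled ones. It overlapped through Ptpro-KO replicate 3, with a log2 difference of -0.44 ± 0.24 (SE; adjusted p = 0.319). The spindle assembly factor Tpx2 and the kinesins Kif20a, Kif23 and Kif2c had log2 differences from -0.41 to -0.16.

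Among the S phase genes, the 6 subunits of the MCM helicase, which unwinds DNA at the fork, had log2 differences from -0.56 to 0.15. Their mean levels, per length, ran from 13.1 RPKM for Mcm2 to 24.8 RPKM for Mcm7 and 26.5 RPKM for Mcm6. Mcm5 had the lowest log2 difference, with 43.4, 41.3 and 82.2 CPM in Ptpro-KO-labelled libraries, against 76.9, 97.3 and 72.4 CPM in WT-labelled ones. Ptpro-KO replicate 3 reached the WT range at a level far above the other Ptpro-KO libraries, and the log2 difference was -0.56 ± 0.30 (SE; 95% interval -1.30 to 0.17; adjusted p = 0.307). Mcm6, whose E2F letters are printed above, had 70.7, 73.8 and 97.6 CPM in Ptpro-KO-labelled libraries, against 65.6, 79.9 and 73.3 CPM in WT-labelled ones. Its groups overlapped and the log2 difference was 0.15 ± 0.16 (SE; 95% interval -0.24 to 0.53; adjusted p = 0.614). The other 4 subunits ran from -0.38 in Mcm7 to -0.03 in Mcm3, and the differences between subunits were not tested.

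**Figure D4:**
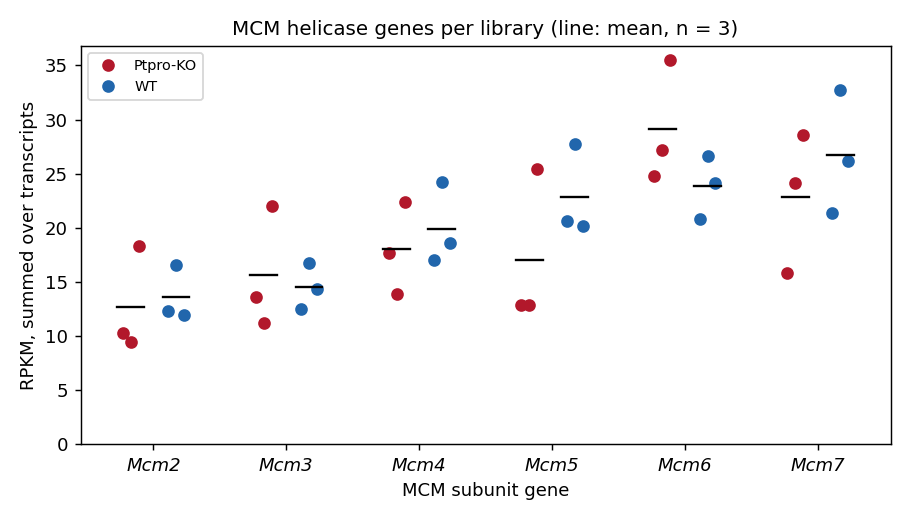
Level of each MCM helicase subunit in RPKM (reads relative to transcript length and library size) in every library, by label, with lines at the means (n = 3), on a linear axis that starts at 0. Mcm5 shows 2 Ptpro-KO libraries at 12.9 RPKM each, below the WT libraries, and Mcm6 shows overlapping groups.

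The sliding clamp and the enzymes that supply nucleotides included the steadiest member. Tyms, thymidylate synthase, had 164, 184 and 173 CPM in Ptpro-KO-labelled libraries, against 170, 180 and 173 CPM in WT-labelled ones. The groups were interleaved, and the log2 difference was 0.00 ± 0.10 (SE; 95% interval -0.24 to 0.23; adjusted p = 0.987). Pcna, the clamp that holds polymerases on DNA, had the highest mean level of all 48 members at 55.5 RPKM, next to 55.4 RPKM for Tyms. It had 68.3, 64.6 and 96.7 CPM in Ptpro-KO-labelled libraries, against 86.8, 97.0 and 86.1 CPM in WT-labelled ones, a log2 difference of -0.23 ± 0.18 (SE; adjusted p = 0.458). Its Ptpro-KO replicate 3 was level with the highest WT library. Rrm1, the large subunit of ribonucleotide reductase, had 91.0, 133 and 110 CPM in Ptpro-KO-labelled libraries, against 118, 186 and 149 CPM in WT-labelled ones. Ptpro-KO replicate 2 was here the highest of its label and the groups overlapped, with a log2 difference of -0.44 ± 0.22 (SE; adjusted p = 0.271). The small subunit Rrm2 had a log2 difference of 0.03, with an interval of -0.61 to 0.68.

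Genes that license and fire origins were among the least abundant members. Cdt1, which loads the helicase, had 10.6, 8.38 and 17.5 CPM in Ptpro-KO-labelled libraries, against 9.37, 16.1 and 9.29 CPM in WT-labelled ones, a log2 difference of 0.07 ± 0.36 (SE; adjusted p = 0.926). Gins2, a subunit of the active helicase, had 7.44, 8.45 and 11.8 CPM in Ptpro-KO-labelled libraries, against 7.80, 9.44 and 7.94 CPM in WT-labelled ones, a log2 difference of 0.14 ± 0.23 (SE; adjusted p = 0.752). The groups overlapped in both genes, and Ptpro-KO replicate 3 was the highest of all 6 libraries in each. The loader Cdc6 (1.67 RPKM) and the firing factor Cdc45 (5.37 RPKM) had log2 differences of -0.20 and -0.13. Of the genes that maintain replicated chromatin, Uhrf1, which reads hemimethylated DNA, had 36.3, 31.2 and 67.3 CPM in Ptpro-KO-labelled libraries, against 48.5, 59.5 and 43.8 CPM in WT-labelled ones, a log2 difference of -0.17 ± 0.31 (SE; adjusted p = 0.776). Hells, a chromatin remodeller whose E2F letters are printed above, had 38.7, 31.9 and 55.0 CPM in Ptpro-KO-labelled libraries, against 44.7, 60.2 and 47.2 CPM in WT-labelled ones, a log2 difference of -0.28 ± 0.23 (SE; adjusted p = 0.510). In both, Ptpro-KO replicates 1 and 2 lay below all WT libraries and replicate 3 lay among or above them.

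The 5 transcription factors had a median log2 difference of 0.09, which was -0.16 without Ptpro-KO replicate 3. E2f2, an activating E2F, had the lowest mean level of all members at 0.954 RPKM (chr4:136172394-136196057, plus strand, GRCm38). It had 5.51, 5.16 and 6.80 CPM in Ptpro-KO-labelled libraries, against 3.8, 1.63 and 3.27 CPM in WT-labelled ones. All 3 Ptpro-KO libraries lay above all 3 WT libraries, an order shared by 16.8% of all genes tested. The log2 difference was 1.00 ± 0.35 (SE; 95% interval 0.14 to 1.86; edgeR adjusted p = 0.152, DESeq2 adjusted p = 0.0519). Mybl2, the MuvB partner B-Myb, had the highest mean level of the 5 (7.21 RPKM), with 15.1, 20.9 and 31.0 CPM in Ptpro-KO-labelled libraries, against 23.7, 22.6 and 14.0 CPM in WT-labelled ones. Its groups overlapped, with a log2 difference of 0.15 ± 0.33 (SE; adjusted p = 0.814). E2f1, another activating E2F, the repressor E2f8 and the mitotic activator Foxm1 had log2 differences of 0.07, -0.06 and 0.09. E2f1 varied least of these 3, with an interval of -0.27 to 0.40.

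Other genes of the same pathways gave a like picture. Of 127 further genes in 7 lists, from origin recognition to the MuvB complex, edgeR called 0, beside 4.10% of all genes tested. Of these, 104 had a negative log2 difference, against 46.7% of all genes, and their median was -0.19, against 0.03. They were measured in the same tumours as the members and add no replicates. At an unadjusted p under 0.05 edgeR gave 6, all lower, beside 25.0% of all genes (11.3% lower), and DESeq2 called 5, beside 17.9% of all genes. Cks2, a small partner of Cdk1, had 13.0, 16.5 and 17.5 CPM in Ptpro-KO-labelled libraries, against 22.9, 33.7 and 26.4 CPM in WT-labelled ones, a log2 difference of -0.82 ± 0.20 (SE; edgeR adjusted p = 0.0764, DESeq2 adjusted p = 0.00345). Ttk, the checkpoint kinase Mps1, had 11.7, 13.4 and 17 CPM in Ptpro-KO-labelled libraries, against 20.6, 29.5 and 24.6 CPM in WT-labelled ones, a log2 difference of -0.83 ± 0.21 (SE; edgeR adjusted p = 0.0832, DESeq2 adjusted p = 0.00474). In both genes all Ptpro-KO libraries lay below all WT libraries, an order found in 9 of the 127, beside 15.7% of all genes. The same order held in the other 3 genes DESeq2 called: the origin recognition subunit Orc4 (-0.26; edgeR adjusted p = 0.137), the polymerase alpha subunit Pola2 (-0.69; adjusted p = 0.138) and the retinoblastoma gene Rb1 (-0.41; adjusted p = 0.105). In the remaining lists the smallest p belonged to the condensin gene Ncapd2 (-0.52; adjusted p = 0.215) and the spindle gene Ckap2 (-0.43; adjusted p = 0.307).

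Markers of several cell types that could share the tumour passed the test, unlike the members, beside 4.10% of all genes tested. Basal squamous markers, 8 of 8 tested and 2 called lower, summed to 10800 to 13600 CPM in Ptpro-KO-labelled libraries, against 23200 to 31400 CPM in WT-labelled ones. The 8 suprabasal markers summed to 3900 to 11200 CPM in Ptpro-KO-labelled libraries, against 12800 to 29100 CPM in WT-labelled ones. Of these, 3 were called lower, and 1 had a positive log2 difference (1.04) and was not called. Simple epithelial markers, 4 of 5 called higher, summed to 1050 to 2120 CPM in Ptpro-KO-labelled libraries, against 37.8 to 83.7 CPM in WT-labelled ones. Fibroblast markers, 2 of 7 called higher, summed to 2970 to 4670 CPM in Ptpro-KO-labelled libraries, against 361 to 1890 CPM in WT-labelled ones. Macrophage markers, 0 of 8 called, summed to 614 to 1170 CPM in Ptpro-KO-labelled libraries, against 83.6 to 364 CPM in WT-labelled ones. The sums of the other 4 lists overlapped between labels. T cell markers ran from 8.07 to 14.9 CPM in Ptpro-KO-labelled libraries, against 7.05 to 14.6 CPM in WT-labelled ones, and B and plasma cell markers from 5.07 to 51.0 CPM, against 2.39 to 10.3 CPM. Endothelial markers ran from 156 to 258 CPM in Ptpro-KO-labelled libraries, against 149 to 242 CPM in WT-labelled ones. Striated muscle markers summed to 8195, 3393 and 68.0 CPM in Ptpro-KO-labelled libraries, against 7808, 52.8 and 5434 CPM in WT-labelled ones. They were lowest in Ptpro-KO replicate 3 and WT replicate 2, where most members were highest within their label. A link between the 2 was not tested. None of these lists had a marker at 0 in every library of a label. The part of these cell types in the members' values was not tested.

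Set against the basal markers, the members gave higher ratios in Ptpro-KO-labelled libraries. For each 1000 CPM of basal markers the mitosis members summed to 78.4, 112 and 141 CPM in Ptpro-KO-labelled libraries, against 69.0, 66.5 and 58.3 CPM in WT-labelled ones. The S phase members summed to 56.5, 72.3 and 82.5 CPM per 1000 basal CPM in Ptpro-KO-labelled libraries, against 38.9, 36.4 and 34.0 CPM in WT-labelled ones. The groups did not overlap in either ratio, while the summed CPM of the mitosis members themselves, 1064, 1210 and 1809 for Ptpro-KO against 1598, 2087 and 1627 for WT, did. The basal sums, the denominator, did not overlap either, at 10800 to 13600 CPM for Ptpro-KO against 23200 to 31400 CPM for WT. The mean sums of the members were lower for Ptpro-KO, 1361 against 1771 CPM for mitosis and 871 against 997 CPM for S phase. The ratios were thus higher through their denominator and do not measure division per basal cell. This ratio was chosen after its values were seen and carries no test. Its numerator holds reads of dividing cells of every type.

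**Figure D5:**
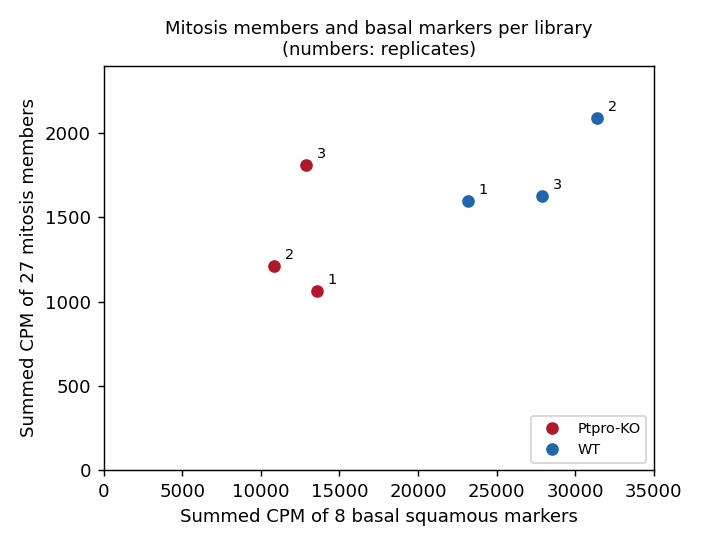
Summed CPM of the 27 mitosis members (vertical axis) against summed CPM of the 8 basal squamous markers (horizontal axis), 1 point per library, numbered by replicate and coloured by label; both axes are linear and start at 0. The Ptpro-KO libraries lie at 10800 to 13600 CPM of basal markers, left of the WT libraries, at mitosis sums of 1064 to 1809 CPM.

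Counts of some members rest on more than 1 transcript or share their locus. In 42 of 48 members at least 80% of reads were listed under 1 transcript, and the exceptions were Cdca8, Cenpa, Cenpf, Birc5, Ube2c and Pttg1. The second Birc5 transcript took 30.3%, 31.0% and 25.2% of its reads in Ptpro-KO-labelled libraries, against 26.1%, 19.7% and 26.9% in WT-labelled ones, and its groups overlapped. In GENCODE M21, 12 members overlap 14 protein-coding genes, among them Prc1 with Rccd1, Ccna2 with Exosc9, Nusap1 with Oip5 and Ube2c with the muscle troponin gene Tnnc2, each on the opposite strand. The sources used here do not say whether counting used strand, so reads of such pairs cannot be told apart. On the same strand, Cdt1 overlaps Gm20388 over 5540 bases, and Foxm1 overlaps Tex52 over 691 bases and Gm44596 over 644 bases. Strand would not separate the reads of these pairs. Ccnb1, Ccnb2, Pcna and Tyms have pseudogene copies by name, between which reads may have been split.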

How the data were processed

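RNA of 6 tumours was sequenced, 3 libraries per label. Per the submitters' processing notes reads were aligned by the authors with Bowtie 0.12.2 (mm10). The authors deposited read counts per transcript and RPKM values per library, the RPKM being relative to transcript length and library total. The authors also deposited FPKM values and a scaled count signal, which is not whole, per gene; these were used in alternatives. 4 columns that match no single sample were not used.

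Counts were summed per symbol (100249 transcripts, 0 reads on blank names). edgeR 4.0.16 in R 4.3.3 gave filterByExpr (10 counts in 3 libraries scaled by size, 15 in total), TMM scaling, the quasi-likelihood test and Benjamini-Hochberg adjustment over 17663 genes at 0.05. Intervals are 95% from the t distribution with 6.0 degrees of freedom; log2 CPM has a prior count of 2. Alternatives used DESeq2 1.42.0 and limma 3.58.1. The test was run on simulated data first. It called 2 of 99 genes simulated with a 2-fold change and 42 of 96 with a 4-fold change. Of 17200 genes simulated without a change it called 7. In this simulation, where few of the 17395 genes fitted were changed, a 2-fold difference was thus seldom called. In the real data 725 genes were called, so that rate need not hold there.

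Members and lists were chosen with earlier results of these data known, and the result of 1 marker list is not reported here. In each role the member with the highest RPKM and the one with the smallest p were described, as was each whose groups do not overlap; Mki67 and Tyms were added after their values were seen. Libraries of a label were no duplicates (chi-square per degree of freedom at least 66.9); the design text speaks of separate mice. Counting error is small beside the spread between tumours.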

Additional observations from a re-analysis of the deposited data

How the results depend on the processing

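Under all 18 alternatives 0 members were called. The lowest adjusted p of a member was 0.0519 (E2f2, DESeq2), and between 0 (without Ptpro-KO replicate 1) and 16 (without Ptpro-KO replicate 3) members had an unadjusted p under 0.05. The count over all genes moved more: 725 became 3160 with DESeq2, 237 with the replicate block, and 0 to 496 without single libraries, the 0 being reached on leaving out WT replicate 2 or 3, or Ptpro-KO replicate 2. With library totals 68.2% of 924 calls were on the higher side, against 44.1% of 725 with TMM. The deviations of same-numbered libraries correlated at 0.54, 0.08 and -0.24. The 0.54 of the replicates numbered 1 was the highest of all pairs across labels, while the other 2 were low or negative. The labels do not say whether these libraries pair. The replicate block called 0 members, with medians of -0.37 for mitosis, -0.25 for S phase and 0.08 for regulators. Without single libraries the medians ran from -0.47 to -0.18 for mitosis, -0.44 to -0.02 for S phase and -0.16 to 0.24 for regulators, and the balance from -0.21 to -0.08; no other alternative reversed a median or the balance.

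Uncalled log2 differences changed sign as follows. With library totals they were 0.0268 for Ccna2, 0.122 for Cenpf, 0.0848 for Melk, 0.117 for Mcm3, 0.147 for Tyms, 0.0246 for Cdc45 and 0.0929 for E2f8. Rrm2 had -0.0188 with limma-voom, -0.0141 with the replicate block and -0.0261 with limma on scaled counts, where Cdk1 had -0.00163. Tyms had 7.14e-05 with upper quartile scaling, 0.014 with at least 50 reads in 3 libraries and 0.00534 with the most-read transcript. Without single libraries the range spanned 0 for 18 genes: Ccna2 (-0.382 to 0.0185), Cdk1 (-0.171 to 0.169), Bub1 (-0.399 to 0.1), Cenpf (-0.269 to 0.124), Melk (-0.305 to 0.0802), Mcm3 (-0.352 to 0.151), Mcm6 (-0.0154 to 0.209), Rrm2 (-0.234 to 0.241), Tyms (-0.0603 to 0.012), Cdc6 (-0.701 to 0.0935), Cdc45 (-0.396 to 0.0173), Cdt1 (-0.285 to 0.376), Gins2 (-0.0805 to 0.242), Uhrf1 (-0.589 to 0.0142), E2f1 (-0.0237 to 0.13), E2f8 (-0.417 to 0.137), Foxm1 (-0.2 to 0.357), Mybl2 (-0.161 to 0.337). The cause was not tested.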
